A study of Mus musculus with 3 samples.

Results

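The Prader-Willi and Angelman domain is an imprinted stretch of mouse chromosome 7 that holds Ube3a, Snrpn, Ndn, Magel2 and Mkrn3. It was followed here by its array probes, taken on build mm9 from a window of chromosome 7 that runs from just before Ube3a to past Mkrn3. Probes whose starts lay at most 500 bp apart were joined into tiled regions of at least 3 probes. This gave 33 regions of the 28880 on the array, and 488 of its 409597 placed probes, of which 487 lay in a region. The regions reach from 66482912 to 69621292. Regions are numbered 1 to 33 in order of position. A gene name was given to a region by its distance to the approximate mm9 position of the gene, which named 5 regions and left 28 without a name. No mm9 annotation was used, so exons, introns and start sites are not assigned to any region, and no gene is offered for the 28 others.

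The samples were frontal cortex DNA of naive male C57BL/6 mice aged 2 months, in 3 pools of 3 mice each, with no other condition. Methylated fragments were captured with an antibody against 5-methylcytosine, described by the submitters as blind to hydroxymethylation. The bound and the input DNA of a pool were amplified over the whole genome, labelled with Cy5 (bound) and Cy3 (input), and hybridised together. All 3 arrays had the same dye orientation, so a dye effect cannot be told apart from enrichment. The DNA was pooled tissue, so neurons and other cells, and the maternal and paternal alleles, are averaged in each value. The titles number the arrays 1 to 3 while the descriptions call each of them biological replicate 1. The titles were followed, and nothing else shows that the pools were separate.

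In mice and humans the genes of this domain are expressed according to the parent they came from. Snrpn, Ndn, Magel2 and Mkrn3 are expressed from the paternal copy, and Ube3a is expressed mainly from the maternal copy in neurons, where a long paternal antisense transcript that starts near Snrpn silences the other copy. The start of Snrpn lies in the imprinting centre, where the maternal copy carries DNA methylation that the paternal copy lacks. Loss of the paternal genes is associated with Prader-Willi syndrome in humans, and loss of maternal UBE3A with Angelman syndrome.

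Because the antibody captures methylated CpGs, the CpG content of each gene's start bears on the enrichment it can show. The promoters listed by RefSeq on GRCm38.p6 cover all 5 genes, and the 250 bases upstream of each start are shown 5′ to 3′ on the gene's strand with each CpG in capitals. For Snrpn the start shared with Snurf was taken, which is the lowest in position of the 4 listed, and the other 3 starts lie upstream of it. They are windows of another build than the array and were not placed on its probes.
Ube3a (chr7:59228500-59228749, plus strand): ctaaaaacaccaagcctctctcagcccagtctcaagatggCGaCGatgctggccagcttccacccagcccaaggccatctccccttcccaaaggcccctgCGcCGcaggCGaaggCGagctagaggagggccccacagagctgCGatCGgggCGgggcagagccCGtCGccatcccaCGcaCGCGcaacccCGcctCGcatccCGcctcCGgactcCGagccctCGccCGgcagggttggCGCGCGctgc
Snrpn (chr7:60005200-60005449, minus strand): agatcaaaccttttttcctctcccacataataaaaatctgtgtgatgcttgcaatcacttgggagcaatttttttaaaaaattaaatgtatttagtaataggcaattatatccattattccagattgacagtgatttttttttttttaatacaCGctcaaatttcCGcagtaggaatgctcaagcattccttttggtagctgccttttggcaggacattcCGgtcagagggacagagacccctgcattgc
Ndn (chr7:62348027-62348276, plus strand): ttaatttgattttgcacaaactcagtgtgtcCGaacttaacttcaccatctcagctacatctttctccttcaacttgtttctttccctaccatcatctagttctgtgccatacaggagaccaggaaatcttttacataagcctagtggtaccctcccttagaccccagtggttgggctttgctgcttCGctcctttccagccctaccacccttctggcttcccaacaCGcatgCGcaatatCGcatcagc
Magel2 (chr7:62376729-62376978, plus strand): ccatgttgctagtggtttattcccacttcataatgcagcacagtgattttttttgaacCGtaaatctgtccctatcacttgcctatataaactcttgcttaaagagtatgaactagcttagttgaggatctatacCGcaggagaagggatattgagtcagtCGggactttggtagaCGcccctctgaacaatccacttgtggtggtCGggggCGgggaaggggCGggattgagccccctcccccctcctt
Mkrn3 (chr7:62420154-62420403, minus strand): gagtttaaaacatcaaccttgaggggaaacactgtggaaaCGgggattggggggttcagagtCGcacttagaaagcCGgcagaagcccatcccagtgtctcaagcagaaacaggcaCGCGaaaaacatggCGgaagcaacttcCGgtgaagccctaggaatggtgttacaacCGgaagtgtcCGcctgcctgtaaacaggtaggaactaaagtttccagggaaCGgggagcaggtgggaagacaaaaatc
The window of Ube3a held 24 CpGs at a GC content of 70.0%, and 12.0% of the 32851 mouse promoters in the table held at least as many. The 4 paternally expressed genes had far fewer, against a median of 6 over all promoters. Mkrn3 had 10 CpGs, Magel2 had 7, Ndn had 5 and Snrpn had 3. The motif TATAAA, searched on both strands, was found once in the window of Magel2, on its own strand, and in none of the other 4. It occurred in 12.4% of all promoters.

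A value is the log2 ratio of bound to input processed signal, minus the median of all probes on that array. Zero is therefore the middle probe of the array and no methylation standard, and the ratio is no methylation percentage. With zero set at each array's mode, 0.70, 0.81 and 0.64 above its median, every value falls by about that much. Differences between regions do not depend on this choice. A call means an adjusted p below 0.05 in limma's 1-group fit against 0 over all regions or all probes.

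The domain was dim on these arrays, which limits every value that follows. In its regions 32.0% of probes had input signal well above background on all 3 arrays, against 65.2% in all other regions. The bound signal was above background on no array for 73.1% of domain probes, against 31.7% elsewhere. Neither channel was above background on any array for 40.5% of domain probes, against 14.2% elsewhere. Such a probe has no measured ratio, yet the scanner's surrogate signals put probes of this kind at array medians of 0.34, 0.40 and 0.40. Array 1 also had more probes above background over the whole array, 66.0% in the bound and 83.3% in the input channel. Array 2 had 47.4% bound and 69.0% input, and array 3 had 51.1% bound and 69.4% input. The part of these differences in the results was not tested.

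**Figure D1:**
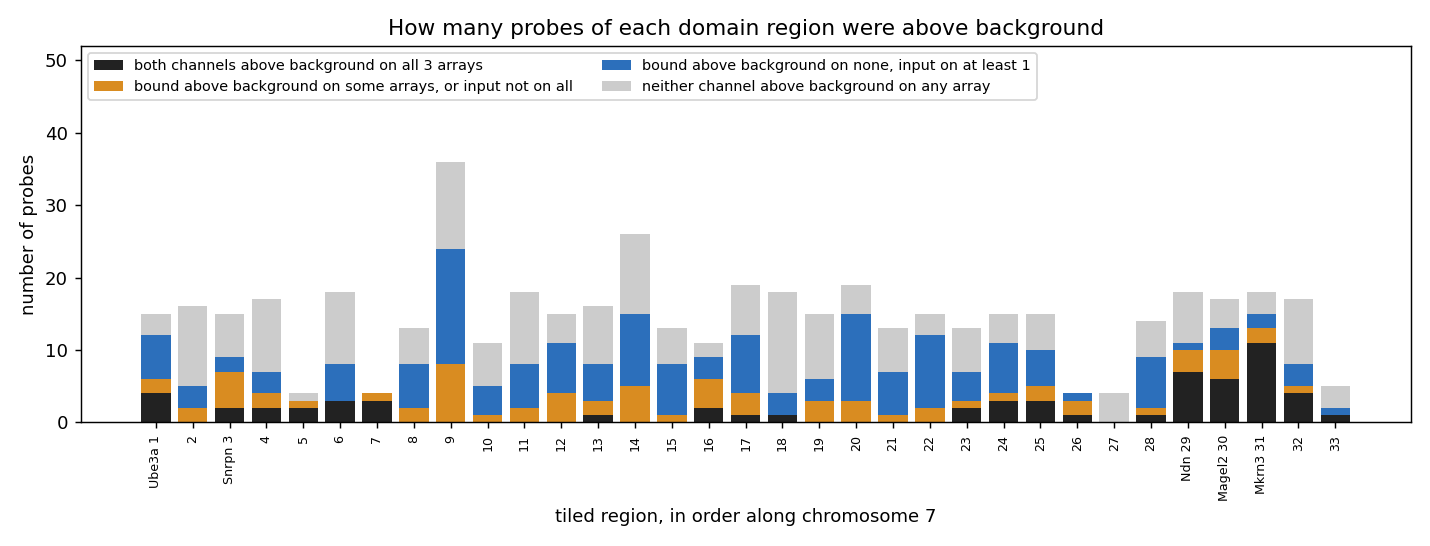
Number of probes (y axis) in each of the 33 regions in order along the chromosome (x axis), split by whether the bound and input channels were well above background. Mkrn3 has the most probes measured in both channels on all arrays, 11 of 18, while region 27 has none above background in either.

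Of the 33 regions, 5 were called higher than the array median (15.2%, where 28% of all regions were), 13 were called lower (39.4%, where 38.1% of all were), and 15 were not called. Ndn, Magel2 and the unnamed regions 5, 7 and 32 were the higher ones. Of the 5 gene regions 2 were higher, 1 was lower and 2 were not called, and of the 28 others 3 were higher, 12 lower and 13 not called. With zero at the mode, 0 regions were higher and 29 lower. Among single probes, 85 of 488 were called higher (22.4% of all probes tested were) and 110 lower (23.6% of all were). Of these, 55 of those called higher had neither channel above background on any array, and 76 of the lower ones had no bound signal above background. The count of higher probes was 41 without array 1, 17 without array 2 and 26 without array 3. Shares over the whole array with an array left out, or with zero at the mode, are not given here. These changes are therefore not to be read as particular to the domain.

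**Figure D2:**
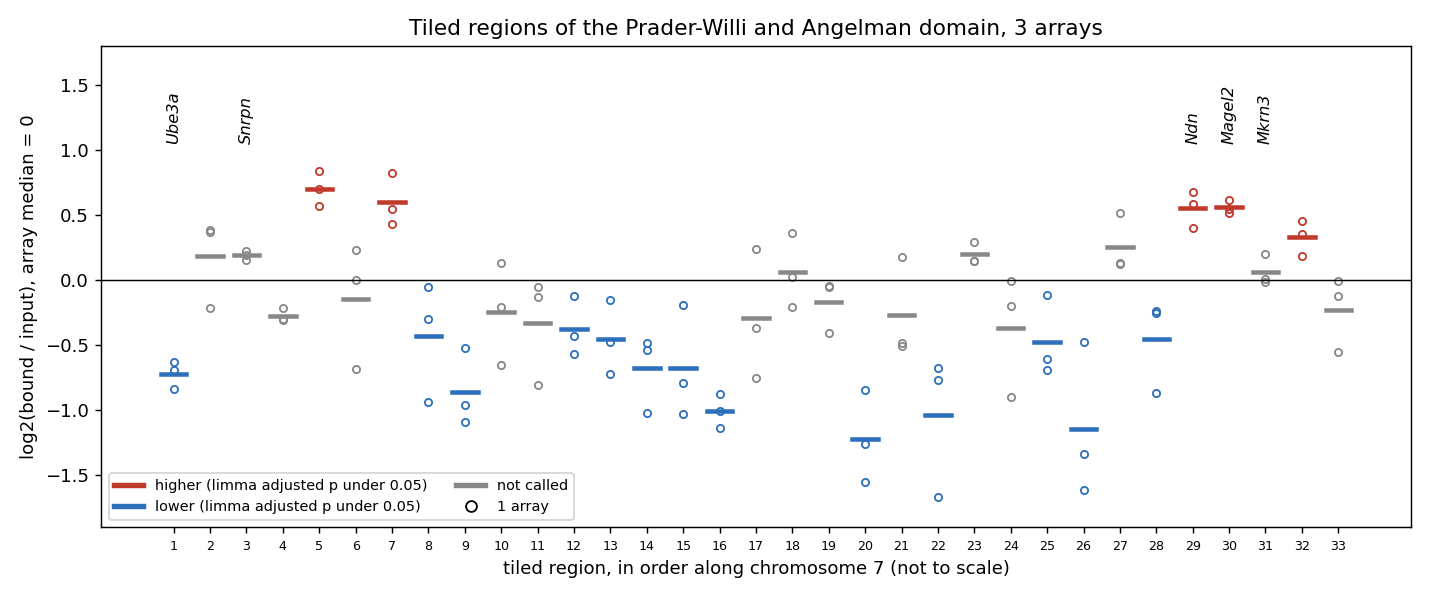
Region means of log2 bound over input relative to the array median (y axis) for the 33 regions in order (x axis, not to scale). Circles are the 3 arrays, bars their mean, and colours the limma call, with Ndn and Magel2 above 0 on every array and Ube3a below 0 on every array.

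Ube3a, which encodes a ubiquitin ligase, had the lowest value of the 5 genes. Its region 1 (chr7:66482912-66484248, 15 probes) lay at -0.69, -0.63 and -0.84 on arrays 1, 2 and 3. The mean was -0.72 ± 0.11 (SD, n = 3), 1.65-fold below the array median, with an adjusted p of 0.000198. That placed it at percentile 17.4 of all regions. Left to the 4 probes measured in both channels on every array, the region turned to 0.54, a subset chosen in part by its bound signal. After normexp and loess it was no longer called, at -0.09.

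Low values of Ube3a lay in the middle of its region, and the mean was higher at its ends, where few probes were measured in both channels. The 4 probes within 200 bp of the midpoint averaged -1.82 ± 0.32, and the 5 probes over 500 bp from it averaged 0.03 ± 0.33. Centre minus edges was -2.24, -1.58 and -1.73 on the 3 arrays, -1.85 ± 0.34 in all, with an adjusted p of 0.000127. The share of all regions called this way was 32.4%, and 17% were called with a higher centre. The bound signal of all 4 centre probes was below background on every array. Of the 5 edge probes, 1 was measured in both channels on all arrays, and 3 had bound signal above background on none. For 2 of these 3 the input was above background on no array either. The size of this difference is therefore not measured. Counting from position 66483292 to 66483645, 4 probes had input above background on all arrays and bound on none. Their ratio was at least 4.42, 3.06, 3.80 and 6.25-fold below the array median, in order of position, taking the lowest bound signal above background on each array, or the probe's own if higher, as the limit. Among the 4 probes measured in both channels, the highest was at 66484027 with 1.78, 1.58 and 1.21, mean 1.53 ± 0.29. The lowest was at 66483762 with -0.80, -0.64 and -0.71, mean -0.72 ± 0.08. Both were called, in opposite directions within the region.

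Region 2 (chr7:66572582-66573906, 16 probes) was not called. It had -0.21, 0.39 and 0.37, so array 1 lay on the other side of 0 from arrays 2 and 3. None of its probes was measured in both channels on every array, and 11 were above background in neither on any.

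Snrpn, which encodes a small nuclear ribonucleoprotein involved in splicing, was close to the array median when its region was taken whole. Region 3 (chr7:67149930-67151221, 15 probes) had 0.22, 0.20 and 0.15, mean 0.19 ± 0.03, adjusted p = 0.165. All 3 arrays lay above 0, at percentile 66.7 of all regions. The region was called higher after normexp (0.16), after normexp and loess (0.11), and as a median over probes (0.49), where the adjusted p ranged from 0.0124 to 0.036. It lay below 0 without a call in the series matrix values (-0.07), and likewise when taken over probes whose input was above background (-0.14).

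The whole-region mean of Snrpn covered a step from enriched to depleted probes. Its lower-coordinate part, before the midpoint, averaged 0.81 ± 0.16 over 8 probes, and the higher-coordinate part averaged -0.52 ± 0.11 over 7. The higher-coordinate minus the lower-coordinate part was -1.51, -1.47 and -1.02 on the arrays, mean -1.33 ± 0.27, with an adjusted p of 0.000519. Of all regions 24.8% were called in this direction and 25.9% in the other. Such a difference was common in the domain, where 2 of 31 regions were called in the direction of Snrpn and 13 in the other. Region 2 had 1.62 ± 0.64, region 15 had 1.39 ± 0.28 and region 23 had 1.34 ± 0.51. None of the probes of region 2 was measured in both channels on every array, and after normexp its difference was 0.18 and not called. Those of regions 10, 11, 22 and 25 also lost their call after normexp. Among the 13, only regions 13 and 25 gave a difference over probes with input above background, at 0.16 (not called) and 0.82 (called). The split at the midpoint was chosen after the values were seen. RefSeq places Snrpn on the minus strand, so the enriched probes lie on the side towards which transcription runs.

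The only 2 Snrpn probes measured in both channels on all arrays stood next to each other at the lower end, and both were called higher. Probes measured in this way are chosen in part by their bound signal. The share of all such probes called higher is not given here. The probe at 67149987 had 2.30, 1.78 and 2.27, mean 2.11 ± 0.29, or 4.33-fold over the array median. Its neighbour at 67149930 had 2.18, 2.14 and 1.75, mean 2.02 ± 0.24. Their enrichment was above that of every other gene-region probe measured on all arrays. On the other side the probes at 67150758, 67150991 and 67151052 were called lower, at -1.89 ± 0.49, -1.28 ± 0.19 and -1.67 ± 0.33. Their input was above background on all 3 arrays, and their bound signal on 1. The 5 centre probes between had no bound signal above background on any array, and centre minus edges was not called (-0.18, adjusted p = 0.544).

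**Figure D3:**
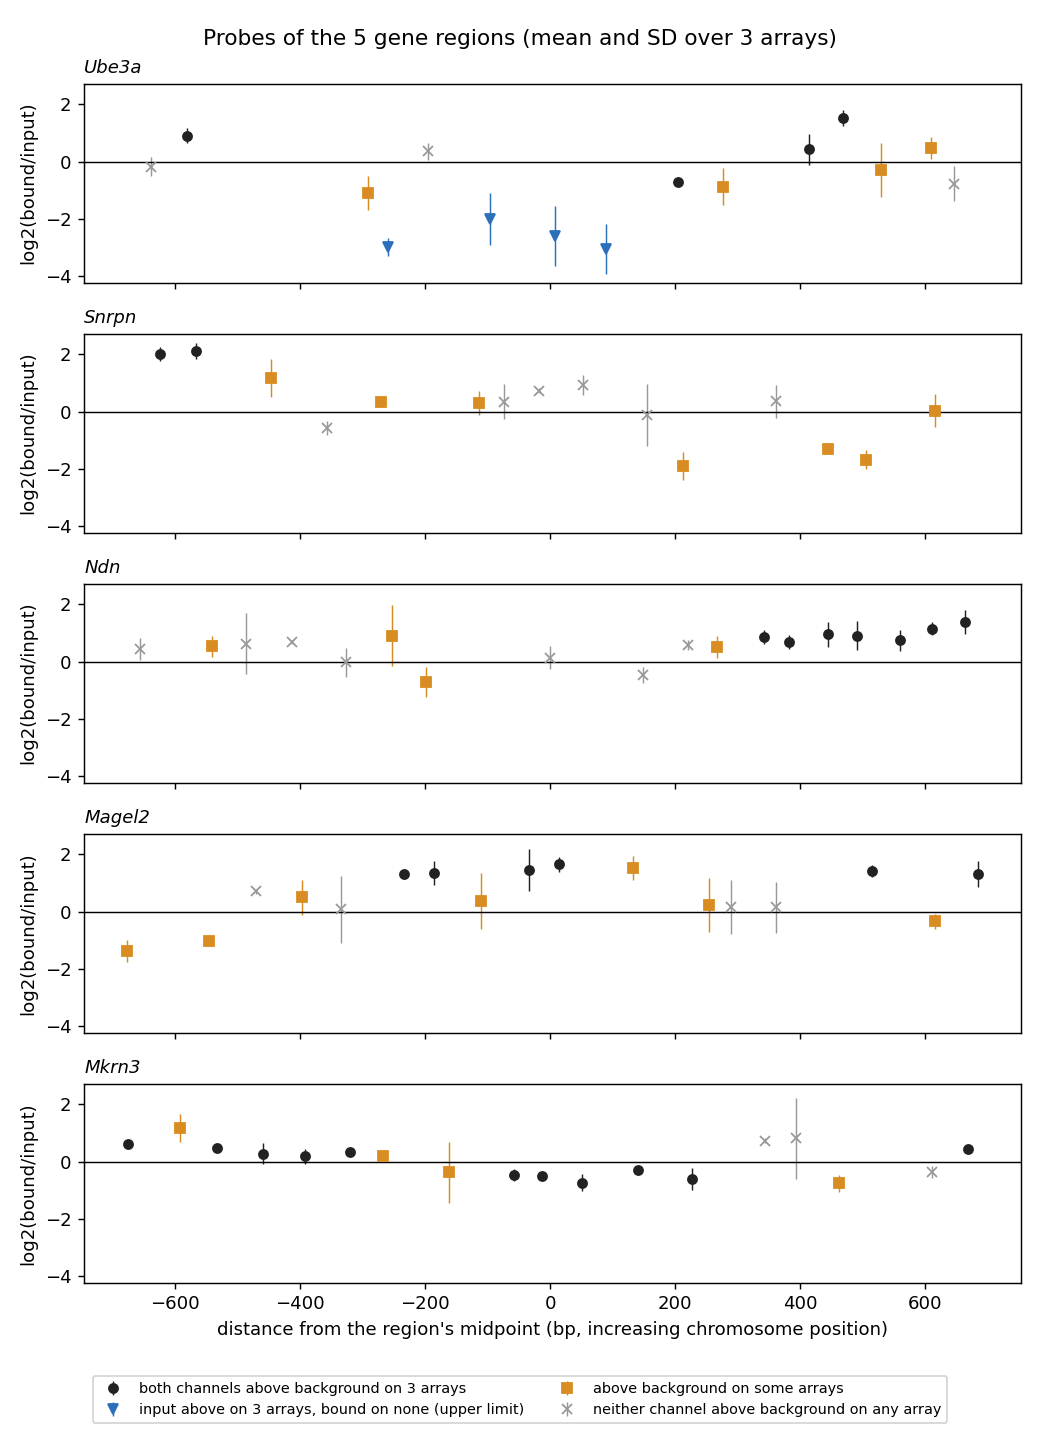
Log2 bound over input relative to the array median (y axis, mean and SD of 3 arrays) for each probe of the 5 gene regions by distance from the region's midpoint in bp (x axis), with marks for the detection of each probe. Ube3a dips in the centre, where 3 probes have upper limits and 1 has no measured ratio, and Snrpn has 2.02 at its lower end and -1.67 near its upper end.

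Between Snrpn and Ndn RefSeq lists 29 genes on GRCm38.p6, of which 13 are miRNA loci of the Mir344 family. No region here was matched to any of them. These genes are counted from the end of Snrpn, which has listed starts upstream of the one shared with Snurf. Whether regions 4 and 5 lie within Snrpn was not determined, since the builds differ. Regions 4 to 7 differed in direction. Region 4 (chr7:67284895-67286324, 17 probes) had -0.30, -0.22 and -0.31, was below 0 on every array, and was not called (adjusted p = 0.0549). It was called lower over probes with input above background (-1.17) and in the series matrix values (-0.82), but not after normexp (-0.08). Region 5 (chr7:67299723-67300545, 4 probes) had 0.70, 0.57 and 0.84. Its mean of 0.70 ± 0.13 was the highest in the domain, 1.63-fold over the array median and at percentile 85.3, with an adjusted p of 0.000257.

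Region 6 (chr7:68366643-68368000, 18 probes) spread from -0.68 on array 1 to 0.00 and 0.23 on arrays 2 and 3, and was not called. Of its probes, 10 were above background in neither channel on any array, and without these the region was called lower at -0.98. It was also called lower over the 3 probes measured in both channels (-1.13) and in the series matrix values (-0.70). Without array 1 it was 0.12 and not called. Region 7 (chr7:68694402-68694630, 4 probes) had 0.82, 0.43 and 0.55, mean 0.60 ± 0.20, adjusted p = 0.00111. It was the brightest of the higher regions, with 3 of its 4 probes above background in both channels on all arrays. After normexp and loess it turned to -0.21, and was called lower with an adjusted p of 0.0329. Its adjusted p under the other alternatives lay below 0.05 except with zero at the mode (0.427).

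Regions 8 to 28 formed the longest stretch without a gap of 100 kb, from 68818685 to 69306201. None of its 21 regions was called higher (28% of all regions were), 12 were called lower (38.1% of all were) and 9 were not called. Of these 9, regions 10, 11, 18, 19, 21 and 24 were called lower without the probes below background in both channels. The same regions, and region 17, were called lower in the series matrix values. Region 27 had no probe above background. The means of the 20 others had a median of -0.44 and ran from -1.22 to 0.20, with 15 below 0 on all 3 arrays and 1 above. In this stretch 80.5% of the 323 probes had no bound signal above background, so the low values are in part limits. Array 1 was the lowest, with a median over regions of -0.80, against -0.43 on array 2 and -0.16 on array 3. Of the 12 lower calls, 4 were lost without array 1, which were those of regions 8, 12, 13 and 28. Without array 2 those of regions 12 and 25 were lost, and without array 3 none was. After normexp 6 were lost, those of regions 8, 12, 15, 22, 25 and 28. With loess added 5 were lost, the same ones except that of region 25.

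At the start of the stretch, region 8 (chr7:68818685-68819934) averaged -0.43 ± 0.45 and was called lower, but without array 1 it was -0.18. After normexp it was -0.03 and not called. Region 9 (chr7:68826304-68829306) was the one with the most probes, 36, and was called lower with -1.09, -0.96 and -0.52, mean -0.86 ± 0.30. Region 10 (chr7:68830080-68831417) averaged -0.24 ± 0.40 and region 11 (chr7:68851352-68852730) -0.33 ± 0.41, and neither was called. Regions 12 to 16 were then all called lower. The calls of regions 12 and 13 were lost without array 1, and that of region 12 also without array 2. Region 12 (chr7:68853513-68854868) averaged -0.38 ± 0.23, with -0.28 without array 1 and -0.35 without array 2. Region 13 (chr7:68871001-68872381) averaged -0.45 ± 0.28, and -0.32 without array 1, and its median over probes was 0.04. Region 14 (chr7:68878468-68881689), the longest of the domain at 3222 bp, averaged -0.68 ± 0.30, and region 15 (chr7:68884097-68885473) averaged -0.67 ± 0.43. The adjusted p of these 4 ran up to 0.0208.

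Region 16 (chr7:68887113-68888530, 11 probes) had -1.01, -1.14 and -0.87. Its mean of -1.01 ± 0.13 was 2.01-fold below the array median, with an adjusted p of 1.66e-05, and its 3 arrays lay closer together than those of any other lower region of the stretch. Regions 17, 18 and 19 were not called. Region 17 (chr7:68895274-68896607) spread from -0.75 on array 1 to 0.24 on array 3, and region 18 (chr7:68935240-68936654) averaged 0.06 ± 0.29. Region 19 (chr7:68982143-68983459) was below 0 on each array at -0.17 ± 0.20. It was called lower over probes with input above background (-1.54) and in the series matrix values (-0.86). Its median over probes was 0.12 and was not called.

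Region 20 (chr7:69022583-69023909, 19 probes) was the lowest of the domain. It had -1.55, -1.26 and -0.85, mean -1.22 ± 0.35, which is 2.32-fold below the array median, at percentile 3.93 of all regions. Its adjusted p was 1.46e-05, and 16 of its probes had no bound signal above background on any array. Region 21 (chr7:69084815-69085816) was not called at -0.27 ± 0.39. Region 22 (chr7:69127020-69128429) had -1.67, -0.67 and -0.77, mean -1.04 ± 0.55, and was called lower, with array 1 well below the other arrays.

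Region 23 (chr7:69190951-69192210) was above 0 on all arrays at 0.20 ± 0.08, without a call. Region 24 (chr7:69223467-69224848) averaged -0.37 ± 0.47 and was not called, and its neighbour region 25 (chr7:69230101-69231409) was called lower at -0.47 ± 0.31, but not without array 2 (-0.36). Region 26 (chr7:69266497-69266741), with 4 probes, had -1.34, -1.61 and -0.48, mean -1.14 ± 0.59, and was called lower. Region 27 (chr7:69267599-69267913) has no measured ratio, since none of its 4 probes was above background on any array. Region 28 (chr7:69305268-69306201) closed the stretch at -0.45 ± 0.36 and was called lower. Without array 1 it was -0.25 and not called, and after normexp it was -0.04 and not called.

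In 6 regions of this stretch the centre was called above the edges, the opposite direction to Ube3a. Of the 25 domain regions with probes in both places, 7 were called with a higher centre (28%, where 17% of all regions were) and 3 with a lower one (12%, where 32.4% of all were). Besides Magel2, the higher ones were regions 12, 13, 15, 16, 18 and 24. Region 24 had the largest difference, 1.51 ± 0.50, with 0.13 in the centre and -1.38 at the edges, and region 16 followed with 1.43 ± 0.29. Over probes whose input was above background on all arrays the domain had 1 region with a higher centre, which was Magel2, and over probes measured in both channels it had 0.

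Ndn, which encodes necdin, a growth-restraining protein of neurons, was enriched over the array median. Its region 29 (chr7:69491960-69493332, 18 probes) had 0.67, 0.58 and 0.40. The mean was 0.55 ± 0.14, 1.47-fold over the array median and at percentile 81.1, with an adjusted p of 0.00152. With zero at the mode the value turned to -0.17, and in the series matrix values it missed the call at 0.18 (adjusted p = 0.197, where the other alternatives with zero at the median ranged up to 0.0184).

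The measured signal of Ndn came from the higher-coordinate end of its region. All 7 probes above background in both channels on all arrays lay there, next to each other, and 5 of them were called higher. This set is chosen in part by its bound signal. The highest, at 69493288, had 1.87, 1.23 and 1.09, mean 1.40 ± 0.42. The lowest, at 69492999, had 0.96, 0.67 and 0.46, mean 0.70 ± 0.25, and was not called. In the whole region 7 of 18 probes were above background in neither channel on any array, 4 in its lower-coordinate part and 3 in its higher-coordinate part. The difference between the parts was not called (0.33 ± 0.29, adjusted p = 0.206). It was called after normexp (0.22, adjusted p = 0.0343) and in the series matrix values (1.87, adjusted p = 0.000573). Centre minus edges was -1.19 ± 0.25 with an adjusted p of 0.00168, but the bound signal of all 3 centre probes was below background on every array.

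Magel2, which encodes a MAGE-family protein that acts with ubiquitin ligases in endosomal protein sorting, had almost the same regional value as Ndn. Region 30 (chr7:69520663-69522076, 17 probes) had 0.52, 0.62 and 0.54, mean 0.56 ± 0.05, 1.47-fold over the array median at percentile 81.4. Its adjusted p was 0.00107, and with zero at the mode the value turned to -0.16. The 6 probes measured in both channels on all arrays were all called higher and lay between 1.31 and 1.66. They too are chosen in part by their bound signal. The highest, at 69521359, had 1.93, 1.39 and 1.64, and the lowest, at 69521107, had 1.50, 1.23 and 1.21. Over probes above background in both channels the region averaged 1.42, at percentile 91.5 of the regions that gave such a value.

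The profile of Magel2 ran against that of Ube3a and Ndn, with the centre above the edges. Its 5 centre probes averaged 1.27 ± 0.21 and the 5 edge probes 0.00 ± 0.21. Centre minus edges was 1.33, 0.83 and 1.65 on the arrays, mean 1.27 ± 0.41, with an adjusted p of 0.00152. The first 2 probes of the region, at 69520663 and 69520795, were called lower at -1.36 ± 0.39 and -1.04 ± 0.15, while edge probes at the other end reached 1.43. Over probes above background in both channels the difference was 0.11 and was not called (adjusted p = 0.622, where the other alternatives were called).

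Mkrn3, which encodes a RING-finger protein known in humans for its role in the timing of puberty, was the best measured of the genes and stayed near the array median. Region 31 (chr7:69564864-69566259, 18 probes) had 0.01, 0.20 and -0.02, so its arrays lay on both sides of 0. The mean was 0.07 ± 0.12 with an adjusted p of 0.643, at percentile 60.1. Of its 18 probes 11 were measured in both channels on every array, and none of these was called. They ran from 0.69, 0.48 and 0.64 at 69564864, mean 0.61 ± 0.11, down to -0.50, -0.63 and -1.07 at 69565590, mean -0.73 ± 0.29. After normexp and loess the region was called lower at -0.17 (adjusted p = 0.012), and with zero at the mode at -0.65 (5.56e-05). Its adjusted p was above 0.05 under every other alternative, up to 0.997.

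The probes of Mkrn3 also had an order within the region. The 5 centre probes averaged -0.47 ± 0.28 and the 5 edge probes 0.47 ± 0.13. Centre minus edges was -0.90, -0.54 and -1.37, mean -0.94 ± 0.41, with an adjusted p of 0.00903. In this region 4 of the 5 centre probes and 3 of the 5 edge probes were above background in both channels on all arrays, so the dip was measured rather than a limit. Without array 3 it was -0.72 and was not called (adjusted p = 0.0857, where the other alternatives were called).

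RefSeq lists Peg12 as the next gene after Mkrn3, and whether region 32 or 33 belongs to it was not determined. Region 32 (chr7:69609208-69610510, 17 probes) had 0.45, 0.35 and 0.19, mean 0.33 ± 0.13, adjusted p = 0.0276. It lost its call without array 1 (0.27) or array 2 (0.32), and turned to -0.04 in the series matrix values and to -0.39 with zero at the mode. Without its probes below background in both channels it was 0.21 and not called (adjusted p = 0.281). Region 33 (chr7:69620557-69621292, 5 probes) was below 0 on all arrays at -0.23 ± 0.29 and was not called.

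The order of the 5 genes was Magel2 and Ndn above Snrpn and Mkrn3, with Ube3a lowest. Each of the other genes exceeded Ube3a on all 3 arrays. Magel2 minus Ube3a was 1.28 ± 0.09, Ndn minus Ube3a 1.27 ± 0.08, Snrpn minus Ube3a 0.91 ± 0.08 and Mkrn3 minus Ube3a 0.78 ± 0.07. Magel2 exceeded Snrpn by 0.37 ± 0.07 and Ndn exceeded Snrpn by 0.36 ± 0.11, on all arrays. Mkrn3 minus Ndn was -0.49 ± 0.15 and Mkrn3 minus Magel2 -0.49 ± 0.07, negative on all arrays. The differences within the pairs at the top and in the middle were no larger than about their spread. Magel2 minus Ndn was 0.01 ± 0.15 and Mkrn3 minus Snrpn was -0.12 ± 0.12, both with arrays on both sides of 0. Mkrn3 minus Snrpn turned to 0.30 in the series matrix values, and to 0.14 where the input was above background. Each of the 10 pairs was compared by an exact two-sided sign-flip test, in which 3 arrays cannot go below p = 0.25. The 8 pairs of 1 sign reached that p, or 0.312 after adjustment over the pairs, so none passes a threshold of 0.05. Mkrn3 minus Ube3a turned to -0.08 after normexp and loess, and to -0.56 over probes above background in both channels. After normexp the gaps to Ube3a were 0.39 (Magel2), 0.31 (Ndn), 0.27 (Snrpn) and 0.03 (Mkrn3). Where the input was above background they were 2.06, 1.94, 0.89 and 1.03. Ndn minus Snrpn was 0.04 and Magel2 minus Snrpn 0.12 after normexp, against 1.04 and 1.17 where the input was above background. Mkrn3 minus Ndn turned to 0.04 in the series matrix values.

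**Figure D4:**
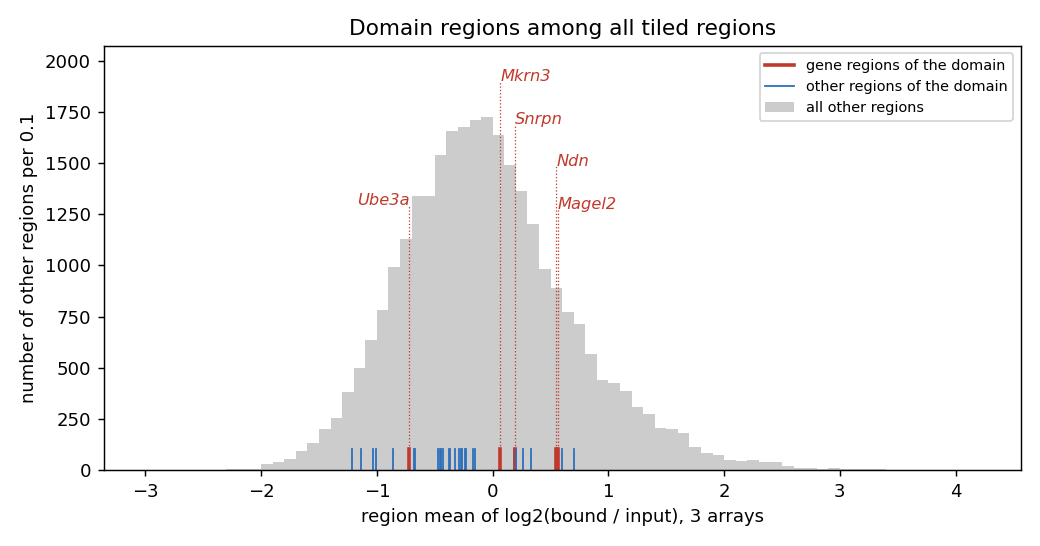
Number of other regions (y axis) by region mean of log2 bound over input relative to the array median (x axis, mean of 3 arrays), with ticks at the 33 domain regions. Ube3a lies at -0.72, Mkrn3 at 0.07, Snrpn at 0.19, and Ndn and Magel2 at 0.55 and 0.56, at percentiles 17.4 to 81.4 of all regions.

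The level of the domain's regions relative to the rest of the array depended on how dim probes were treated. The median of its region means was -0.27, against -0.35 in the 8 regions of an equally long flank before it, -0.21 in the 27 regions of an equally long flank after it and -0.11 in all other regions. The domain's median minus that of all other regions was -0.50, -0.05 and 0.06 on the 3 arrays. Array 1 decided the mean of -0.16 ± 0.30 (SD, n = 3), which was 0.00 without it. The mean difference was -0.56 without the probes below background in both channels, -0.88 where the input was above background, and 0.23 where both channels were. It was -0.73 in the series matrix values. After normexp it was -0.02, and with loess added -0.04. In 20 of the 33 regions array 1 had the lowest value. The share of all regions where it did is not given here, so this is not to be read as particular to the domain. Array 1 was the array with the most probes above background, and a link between these was not tested. The arrays also lay further apart in the domain, with a median SD over arrays of 0.29, against 0.19 over all regions, and with correlations between arrays across the 33 regions of 0.80 to 0.84, against 0.90 to 0.93 across all 28880. These correlations are across regions that share arrays and are given as a description.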

How the data were processed

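The deposited scanner files hold intensities for 2 colours per spot, per the file headers, which name version 10.7.3.1 of Agilent's Feature Extraction and a custom mm9 design. Per the file headers, processed intensities are background-subtracted and dye-normalised, with surrogate values near background, and a deposited log10 ratio column (red over green) was not used. The authors' series matrix holds log2 ratios that tracked bound over input and had column medians of -0.97, -0.97 and -0.97, so its direction is known and the steps of its normalization are not given in the sources used here.

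From the files, processed signals were turned into log2 of bound over input, outlier and control spots were left out, spots of a probe were averaged and each array was centred on its median. A probe counts as above background in a channel on an array if at least 0.5 of its spots were flagged so. Regions were means over probes. Tests were limma 3.58.1 (R 4.3.3) 1-group fits against 0 over all regions or probes with Benjamini-Hochberg adjustment, and exact sign-flip tests for gene pairs. The limma p-values draw on each region's or probe's spread over these 3 arrays together with a variance pooled over the whole array. They therefore do not measure a region's own spread alone. In the domain the median SD over arrays was 0.29, against 0.19 over all regions, so pooling can understate its spread. The number of arrays limits the precision. The centre of a region was its probes within 200 bp of the midpoint and the edges those beyond 500 bp, with at least 2 probes each.

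All regions of the domain are described, with the highest and lowest probe of each gene region that was above background in both channels on all arrays. Ube3a probes with upper limits, and the lower Snrpn and Magel2 probes, were added after their values were seen. Genes were assigned within 15 kb of their approximate position, and Ube3a by overlap. Members and lists were chosen with earlier results of these data known. The normexp alternatives (offset 50) used median spot signals, because the files read here hold no mean.

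The region fit was tested on simulated data. Its estimates were unbiased and few calls were false, but it called none of the smallest changes, a minority of moderate decreases and fewer of the largest than first required. That requirement was dropped after its result was seen, so a region without a call may still differ from the median. The simulation changed only 50 regions at each size among 28880. In the data 28% of all regions were called higher and 38.1% lower. The simulated rates of calls and false calls therefore do not carry over to the calls given here.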

Additional observations from a re-analysis of the deposited data

How the results depend on the processing

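No paired analysis was possible because there was 1 group. The counts below are of the domain alone, without the shares over all regions or probes under each setting. Regions called lower and higher, from 13 and 5, became 29 and 0 with zero at the mode, 23 and 3 in the series matrix values, 7 lower after normexp, 2 lower over probes above background in both channels, and 21 lower without the probes below background in both channels, an alternative chosen after seeing the data. Probes called higher, from 85, became 8 with zero at the mode, 33 after normexp, 27 with loess added, 40 in the series matrix, 35 where both channels, and 32 where the input, were above background, 32 without the doubly dim probes, and 17 to 41 when 1 array was left out. Probes called lower, from 110, became 202 at the mode, 66 with loess and 16 with both channels above background. Regions with a lower centre, from 3, became 6 with other limits (300 and 400 bp), 7 after normexp, 6 with loess, 10 in the series matrix and 1 with both channels above background. Those with a higher centre, from 7, became 0 and 1 over probes with both channels and with the input above background. The domain's median difference, from -0.16, became 0.23 where both channels, and -0.88 where the input, were above background. It became -0.73 in the series matrix, -0.56 without doubly dim probes and -0.28 to 0.0041 when 1 array was left out. After normexp it was -0.02, and with loess added -0.04.

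Regions also changed direction. With zero at the mode, regions 2, 3 (Snrpn), 5, 7, 18, 23, 27, 29 (Ndn), 30 (Magel2), 31 (Mkrn3) and 32 turned to -0.54, -0.53, -0.015, -0.12, -0.65, -0.52, -0.46, -0.17, -0.16, -0.65 and -0.39, by construction. After normexp, regions 18, 31 and 33 turned to -0.0022, -0.082 and 0.082. With loess, regions 7, 18, 27 and 31 turned to -0.21, -0.049, -0.059 and -0.17, Mkrn3 minus Ube3a to -0.079 and the uncalled difference between the parts of Ube3a to -0.016. In the series matrix, regions 2, 3, 18 and 32 turned to -0.88, -0.072, -0.83 and -0.044, Mkrn3 minus Ndn to 0.042 and Mkrn3 minus Snrpn to 0.30. With both channels above background, regions 1 (Ube3a), 25 and 31 turned to 0.54, 0.17 and -0.023, and Mkrn3 minus Ube3a to -0.56. With input above background, regions 3 and 31 turned to -0.14 and -0.0038, and Mkrn3 minus Snrpn to 0.14. Magel2 minus Ndn, 0.0089 over all arrays, took both signs over the alternatives. Without doubly dim probes, regions 2, 18 and 23 turned to -0.35, -0.68 and -0.13. As medians over probes, regions 13 and 19 turned to 0.040 and 0.12, and with a gap of 250 bp region 23 turned to -0.063, while Ube3a's region was split and gave no value. When 1 array was left out, region 6 ranged from -0.34 to 0.12, region 18 from -0.087 to 0.20 and region 31 from -0.0024 to 0.11. The cause was not tested where the construction does not show it. Snrpn kept 2 probes with both channels above background and gave no regional value there.

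Signal over background is the main limit. Most domain probes had no bound signal above background, so low values are partly limits and the centre contrasts of Ube3a, Ndn and Snrpn rest on unmeasured bound signal. The number of arrays, the single dye orientation and whole-genome amplification limit the rest.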
